A study of Mus musculus with 6 samples.

Results

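The genes described here make, inactivate or answer to steroid hormones: the aldo-keto reductases Akr1c18, Akr1c21 and Akr1c14, the corticotropin receptor Mc2r, the synthesis genes Star, Cyp11a1 and Hsd3b1, the hydroxylase Cyp7b1 and the oestrogen receptor Esr1. Every non-control probe whose annotated RefSeq transcript belongs to 1 of these genes was taken, which gave 12 of the 55681 probes on the array and 9 of the 20284 genes with a named probe. The genes were chosen by their processed signals in the aged against young comparison, whose results were already known, so their levels are described and not tested. RNA came from whole kidneys of aged male C57BL/6 mice, 20 months old, and of young male C57BL/6 mice, 2 months old, an inbred laboratory strain with no transgene or treatment named at either age. Each age had 3 RNA preparations, with 1 single-colour Agilent array for each preparation. Since the labels do not state that the preparations are from different mice, a p-value reflects how far these preparations vary, and part of that may be technical.

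Steroid hormones are built from cholesterol. Star moves cholesterol into the mitochondrion, Cyp11a1 cuts its side chain to give pregnenolone, and 3-beta-hydroxysteroid dehydrogenases such as Hsd3b1 turn pregnenolone into progesterone, mainly in the adrenal cortex and the gonads. Corticotropin from the pituitary drives this in the adrenal cortex through Mc2r, which needs the accessory protein Mrap to reach the cell surface. The kidney is mainly a target and a site of conversion: it responds to androgens, mineralocorticoids and oestrogens, and its reductases and dehydrogenases activate or inactivate steroids that arrive with the blood.

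Levels are given as the log2 processed signal intensity minus the 75th percentile of that array, called the normalised log2 signal, and are comparable between arrays for 1 probe but not between probes. The 75th percentile of processed signal lay between 2702 and 4498 on the aged arrays and between 2892 and 4366 on the young arrays. Between 46.3% and 62.9% of probes were well above background on the aged arrays, against 55.3% to 72.9% on the young arrays, and no probe was saturated. All 6 arrays lay on 1 slide, the aged ones in 1 row and the young ones in the other, so the slide's rows and the ages cannot be told apart. The kidney markers Lrp2, Slc34a1, Umod, Slc12a1, Slc12a3, Aqp2 and Nphs1 were well above background on all 6 arrays. Their summed level, in multiples of the array's 75th percentile, was 62.9 to 73.9 in aged kidneys and 70.6 to 71.4 in young kidneys.

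Of the 9 genes, 6 passed the filter on dim probes, which asks for a probe to exceed background clearly on each of the 3 arrays of 1 age or both. Mc2r was 4.75-fold higher in aged kidneys, Akr1c18 was 4.49-fold lower, and Akr1c21, Akr1c14, Cyp7b1 and Esr1 differed by at most 0.27 on the log2 scale. Star, Cyp11a1 and Hsd3b1 did not pass. Across the whole array, 491 of 14549 tested genes were called, or 3.37%, by limma with a Benjamini-Hochberg adjusted p under 0.05. An unadjusted p under 0.05 was found for 2494 genes, or 17.1%. Of the called genes, 288 were higher in aged kidneys (1.98%) and 203 were lower (1.40%). By the same threshold 1 of the 6 genes was higher, 1 was lower and 4 were not called, which is a description, since the choice of the genes used this comparison.

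**Figure D1:**
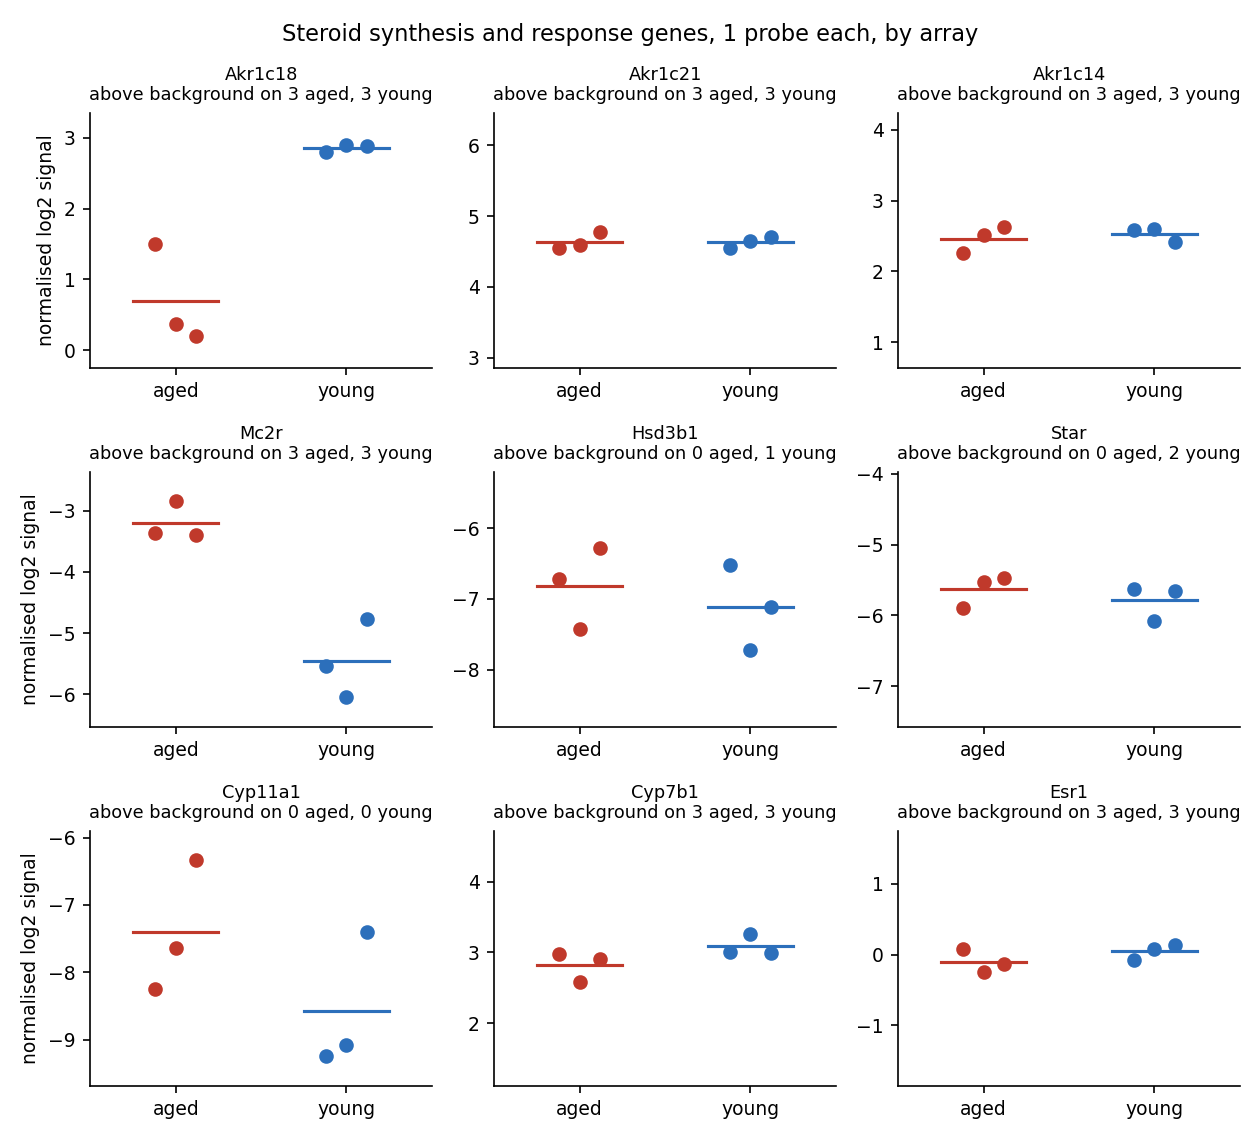
Normalised log2 signal of the brightest probe of each of the 9 genes, 1 point per array, aged arrays left of young arrays, with the mean as a line. Hsd3b1, Star and Cyp11a1 were above background on 0 aged arrays and on 1, 2 and 0 young arrays, as each panel's title gives. The aged arrays lie above the young arrays for Mc2r and below them for Akr1c18 and Cyp7b1, and the ages overlap for Akr1c21, Akr1c14 and Esr1.

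Akr1c18, which in the mouse is the 20-alpha-hydroxysteroid dehydrogenase that turns progesterone into a weak metabolite, had processed signals of 12745, 5436 and 3110 on the aged arrays, against 30278, 30300 and 21312 on the young arrays. On the normalised log2 scale these were 1.50, 0.37 and 0.20 in aged kidneys and 2.79, 2.90 and 2.88 in young kidneys. Every aged value lay below every young value, and the aged arrays were spread over more than 1 log2 unit while the young arrays were nearly equal. The means were 0.69 ± 0.71 in aged kidneys and 2.86 ± 0.06 in young kidneys (SD, n = 3 each), a difference of -2.17 ± 0.31 (moderated standard error). Aged replicate 1 stood closest to the young arrays, and without it the difference was -2.57. In whole-kidney RNA, fewer cells that make a transcript and less of that transcript per cell cannot be told apart.

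Akr1c21 is a 17-alpha-hydroxysteroid dehydrogenase that is abundant in mouse kidney. Its normalised log2 signals were 4.54, 4.59 and 4.77 in aged kidneys and 4.55, 4.64 and 4.71 in young kidneys, so the ages overlapped on a narrow range. The difference was 0.00 ± 0.11, and with normexp background correction of the median spot signal it was 0.20 ± 0.15. Akr1c14, a 3-alpha-hydroxysteroid dehydrogenase that acts on reduced androgens and progestins, gave 2.25, 2.51 and 2.62 in aged kidneys and 2.58, 2.60 and 2.41 in young kidneys. The aged values enclosed the young ones, with a difference of -0.07 ± 0.13.

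Akr1c18, Akr1c21 and Akr1c14 lie in a cluster of related genes on mouse chromosome 13, so the sequence just before each start is set out here for comparison with 2 more genes of the cluster, Akr1c13 and Akr1c12. Each line holds the 250 bases before the RefSeq start on build GRCm38.p6, read 5′ to 3′ on the gene's strand, with capitals on TATAA and CCAAT on either strand. In Akr1c21 the capitals cover overlapping copies of TATAA on both strands, and in Akr1c14 they mark CCAAT read on the other strand.
Akr1c18, chr13:4150647-4150896, minus strand: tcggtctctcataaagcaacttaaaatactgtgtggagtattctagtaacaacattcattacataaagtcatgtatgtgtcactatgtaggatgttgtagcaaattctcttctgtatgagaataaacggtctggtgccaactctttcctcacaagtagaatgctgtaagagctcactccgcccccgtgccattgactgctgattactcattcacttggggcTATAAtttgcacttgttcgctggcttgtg
Akr1c21, chr13:4573825-4574074, plus strand: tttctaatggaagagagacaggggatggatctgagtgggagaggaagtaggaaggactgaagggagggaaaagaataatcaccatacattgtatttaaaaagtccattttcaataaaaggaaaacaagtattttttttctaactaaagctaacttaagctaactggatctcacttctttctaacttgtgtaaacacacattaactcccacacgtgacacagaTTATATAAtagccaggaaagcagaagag
Akr1c14, chr13:4059341-4059590, plus strand: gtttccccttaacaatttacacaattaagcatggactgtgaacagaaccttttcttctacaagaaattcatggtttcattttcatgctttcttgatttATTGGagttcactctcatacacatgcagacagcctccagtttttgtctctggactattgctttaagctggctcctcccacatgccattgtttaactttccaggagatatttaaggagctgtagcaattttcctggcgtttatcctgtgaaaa
Akr1c13, chr13:4190937-4191186, plus strand: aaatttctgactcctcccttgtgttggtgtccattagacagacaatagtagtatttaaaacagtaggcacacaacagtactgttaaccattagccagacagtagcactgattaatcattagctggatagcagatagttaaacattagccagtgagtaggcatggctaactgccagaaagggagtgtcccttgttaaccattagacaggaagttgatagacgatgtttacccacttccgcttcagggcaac
Akr1c12, chr13:4279400-4279649, minus strand: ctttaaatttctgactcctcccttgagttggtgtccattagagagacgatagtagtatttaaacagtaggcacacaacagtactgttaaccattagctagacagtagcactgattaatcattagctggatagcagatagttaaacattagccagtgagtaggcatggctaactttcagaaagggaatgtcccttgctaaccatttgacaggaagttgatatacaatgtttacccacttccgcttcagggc

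With the last base before the start counted as -1, TATAA stands at -29 to -25 in Akr1c18. In Akr1c21 it stands at -28 to -24 on the opposite strand and at -25 to -21 on the gene's own strand. CCAAT stands at -152 to -148 in Akr1c14, on the opposite strand. The nuclear receptor half-site AGGTCA, the steroid receptor half-site TGTTCT and CAAGGTCA, the letters bound by the adrenal factor Nr5a1, were searched on both strands and matched in 0 of the 5 windows. AGGTCA is contained in CAAGGTCA. Among 32851 RefSeq windows of the same length, TATAA was present in 22.8%, CCAAT in 33.8%, AGGTCA in 14.0%, TGTTCT in 16.1% and CAAGGTCA in 1.33%. Identity was counted in a global alignment that allows gaps, as a share of 250 bases. By this count the windows of Akr1c13 and Akr1c12 were 94.0% identical. That of Akr1c18 was 52.4% identical to Akr1c21, 58.8% to Akr1c14, 49.6% to Akr1c13 and 49.2% to Akr1c12. The identity that unrelated windows reach by this count was not measured.

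Along chromosome 13 the RefSeq order is Akr1c14, Akr1c18, Akr1c13, Akr1c19, Akr1c12, Akr1c6, Akr1c20 and Akr1c21. The closest neighbours of Akr1c18 did not share its lower level. Akr1c13 was higher in aged kidneys, with 2.35, 2.37 and 2.43 on the normalised log2 scale against 1.42, 1.67 and 1.90 in young kidneys. The ages did not overlap, the difference was 0.72 ± 0.14, and limma gave a Benjamini-Hochberg adjusted p of 0.0354. That call was lost without aged replicate 2 or 3 or young replicate 1 or 2, with an adjusted p of up to 0.168 over the settings run. Akr1c12 differed by 0.68 ± 0.15 in the same direction without passing (adjusted p = 0.0611 by limma), with -0.25, -0.30 and -0.57 in aged kidneys and -1.04, -0.82 and -1.30 in young kidneys. It passed with median centring (adjusted p = 0.0277), with signal required on all 6 arrays (0.0326) and with trend and robust variance (0.0226). Akr1c19 differed by 0.21 ± 0.11 and Akr1c6 by 0.19 ± 0.17, and Akr1c20 had no named probe. Genes of this cluster are close paralogs, and signal shared between their probes was not tested.

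**Figure D2:**
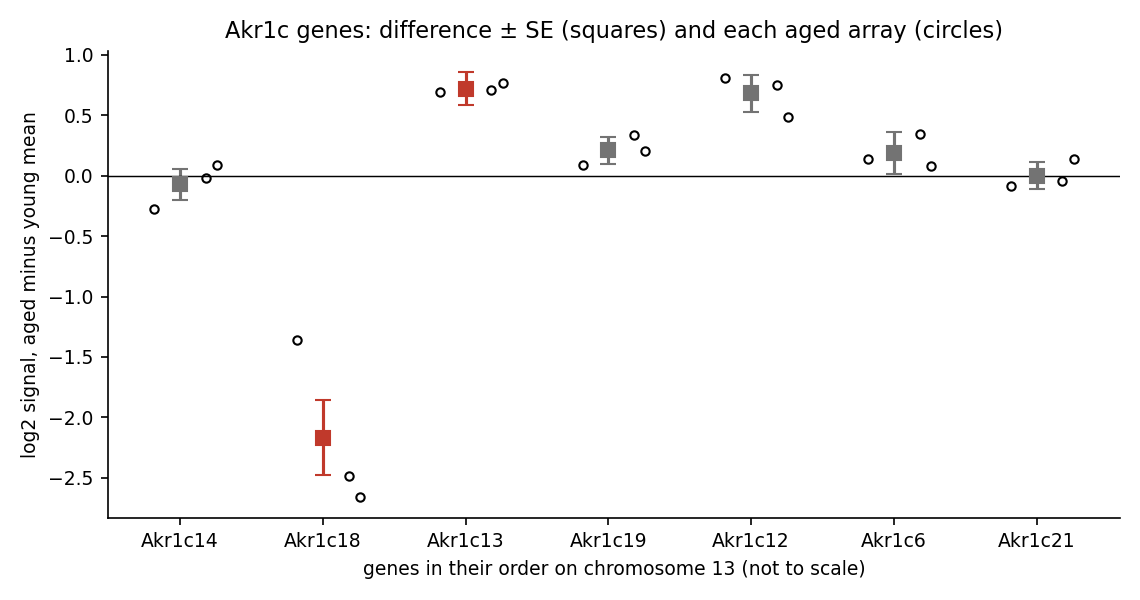
Difference in normalised log2 signal, aged minus young, for the Akr1c genes in their order on chromosome 13, as squares with the moderated standard error as bars and, as open circles, each aged array minus the young mean. Red squares passed the adjusted p of 0.05, which for Akr1c18 is a description, since it was chosen on this comparison. Akr1c18 stands alone far below 0 at -2.17, between Akr1c14 at -0.07 and Akr1c13 at 0.72.

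Star, Cyp11a1 and Hsd3b1, which act at the start of steroid synthesis, were dim in these kidneys. Other genes of the Hsd3b family, Hsd3b2, Hsd3b3, Hsd3b4, Hsd3b5 and Hsd3b6, were above background on all 6 arrays and none was called. Which reaction the product of each carries out was not measured. Star had processed signals of 75.5, 90.8 and 61.1 on the aged arrays and 88.6, 60.0 and 57.3 on the young arrays, and its probe was well above background on 0 aged and 2 young arrays. A second Star probe was above background on 0 of the 6 arrays. Cyp11a1 gave 14.8, 21.1 and 33.4 in aged kidneys and 7.21, 7.53 and 17.1 in young kidneys, above background on 0 of the 6 arrays. Hsd3b1 gave 42.6, 24.5 and 34.6 in aged kidneys and 47.8, 19.2 and 20.8 in young kidneys, above background on 1 young array. The lowest signal called well above background anywhere on an array was 42.6, 93.4 and 110 for the aged arrays and 32.6, 36.1 and 63.9 for the young arrays. No fold change is given for Star, Cyp11a1 or Hsd3b1, since the aged arrays give only a bound and the young mean lay below it.

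Mc2r, the receptor for corticotropin, had processed signals of 436, 584 and 258 on the aged arrays and 94.4, 61.3 and 106 on the young arrays. The normalised log2 signals were -3.37, -2.85 and -3.39 in aged kidneys and -5.53, -6.05 and -4.77 in young kidneys. All 3 aged arrays lay above all 3 young arrays, and the young arrays were the more spread. Means were -3.20 ± 0.31 in aged kidneys and -5.45 ± 0.64 in young kidneys (SD, n = 3 each), a difference of 2.25 ± 0.31. Mc2r was a dim probe, and with normexp background correction of the median spot signal the difference was 1.59.

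Mrap, the accessory protein that Mc2r needs, gave -0.32, -0.51 and -0.32 in aged kidneys and -2.39, -0.93 and -0.80 in young kidneys. The ages did not overlap, but the young spread was wide and the difference of 0.99 ± 0.38 did not pass (adjusted p = 0.237 by limma), although it did with median centring (adjusted p = 0.0189). Mrap2, a relative of Mrap, differed by -0.49 ± 0.13 and did not pass either (adjusted p = 0.0995 by limma). Its probe was above background on 2 aged and 3 young arrays, so it passed the filter through the young arrays alone. Nr5a1, the transcription factor of steroid-making cells, differed by -0.45 ± 0.19 (adjusted p = 0.286 by limma), and Nr0b2, a repressor of nuclear receptors, differed by 0.15. Of the 13 genes for melanocortin and gonadotropin receptors and their regulators, 6 were tested and 0 were called. Of those 6 genes, 3 had an unadjusted p under 0.05, beside 17.1% of all genes, and the median difference of the 6 was -0.22, beside -0.01 over all genes tested. That median was 0.02 over the 4 genes of the list above background on all 6 arrays and 0.47 with no filter.

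Mc2r and Mrap are expressed in the adrenal cortex and, in mice, in fat cells. Of 8 fat cell markers, 7 were tested and 7 of those had a positive difference, with a median of 1.29, but only Plin4, which coats lipid droplets, was called. Plin4 gave -0.57, -0.77 and -0.95 in aged kidneys and -2.98, -2.93 and -1.72 in young kidneys, a difference of 1.78 ± 0.32 (adjusted p = 0.0294 by limma). Adipoq, the hormone adiponectin, differed by 1.72 ± 0.55 (adjusted p = 0.160 by limma) and Cidec, a lipid droplet protein, by 1.71 ± 0.50 (adjusted p = 0.129 by limma). The ages overlapped for the other 4 tested markers, with differences of 1.29 for Plin1, 1.15 for Retn, 0.58 for Cfd and 0.07 for Fabp4. Summed over the 8 fat cell markers, the level in multiples of the array's 75th percentile was 35.6, 32.2 and 33.5 in aged kidneys and 16.5, 24.9 and 32.4 in young kidneys. The third young array was thus level with the aged ones in this sum. Its largest terms there, Fabp4 (3.88 on the normalised log2 scale) and Cfd (3.23), lay above every aged array. On the same array Plin4 (-1.72), Cidec (-0.45) and Adipoq (1.97) lay below every aged array, and Plin1 and Retn lay among the aged values. Lep, the hormone leptin, was above background on 1 aged and 0 young arrays.

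For the 6 adrenal cortex markers Cyp11b1, Cyp11b2, Cyp21a1, Nr5a1, Mrap and Nr0b1 the summed level was 0.957 to 1.11 in aged kidneys and 0.570 to 0.888 in young kidneys. Most of the aged sum was Mrap. Without Mrap, a sum added after the values were seen, the level was 0.230 to 0.314 in aged kidneys and 0.279 to 0.378 in young kidneys, so the ages overlapped and the order of the ranges was the other way. Mrap and Nr5a1 were above background on all 6 arrays, while Cyp11b1, the last enzyme of corticosterone synthesis, was above background on 0. Of these markers 3 were tested and 0 were called by limma. An unadjusted p under 0.05 was found for 2 of them, beside 17.1% of all genes. These 2 had opposite signs, Mrap at 0.99 and Nr5a1 at -0.45. The 7 adrenal medulla markers summed to 0.200 to 0.212 in aged kidneys and 0.261 to 0.269 in young kidneys, with only Phox2a above background on all 6 arrays and Chgb on 0. How far fat or adrenal tissue had a part in the level of Mc2r was not tested.

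**Figure D3:**
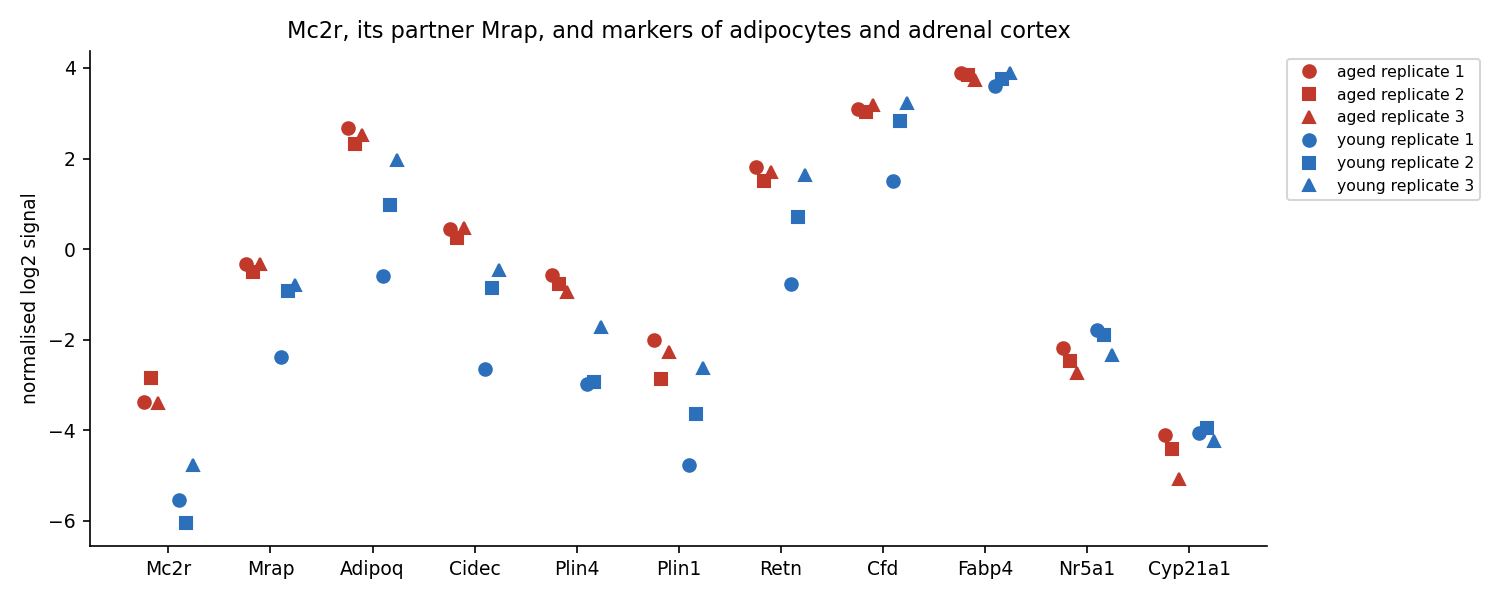
Normalised log2 signal of Mc2r beside Mrap and the fat cell and adrenal cortex markers that were tested, 1 point per array, aged left of young. Levels can be compared between ages within a gene and not between genes. Mc2r, Mrap, Plin4, Cidec and Adipoq have all 3 aged points above the young points. The fat cell markers Plin1, Retn, Cfd and Fabp4 and the adrenal cortex markers Nr5a1 and Cyp21a1 overlap between ages.

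Cyp7b1 adds a 7-alpha hydroxyl group to oxysterols and to steroids such as dehydroepiandrosterone. Its normalised log2 signals were 2.98, 2.58 and 2.90 in aged kidneys and 3.01, 3.25 and 3.00 in young kidneys. The ages did not overlap, although aged replicate 1 lay just under the lowest young array, and the difference was -0.27 ± 0.14. Mc2r, Akr1c18 and Cyp7b1 were the 3 of 6 genes with no overlap between ages, a state found in 21.9% of all genes tested.

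Esr1 encodes oestrogen receptor alpha and had 3 probes. The brightest, printed in 10 spots, gave 0.08, -0.25 and -0.13 in aged kidneys and -0.08, 0.08 and 0.14 in young kidneys. The ages overlapped, with a difference of -0.15 ± 0.12. A second probe was dim, above background on 2 aged and 2 young arrays, with means of -5.50 in aged kidneys and -4.86 in young kidneys, and the third was above background on 0 arrays.

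The rest of the steroid pathway was followed in 7 lists of genes that are not among the 9. Of 102 genes listed, 98 had a probe and 81 were tested, of which 4 were higher in aged kidneys, 2 were lower and 75 were not called. This is 7.41% called, beside 3.37% of all genes, and 21 of the 81 genes had no overlap between ages, beside 21.9%. The lists were chosen with earlier results of these data known, so these shares are a description. Of the called genes, 2 of the 4 higher and 1 of the 2 lower were in the list of androgen-responsive genes. The median difference over the 81 genes was 0.05, beside -0.01 over all genes tested.

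Among synthesis enzymes and carriers, 19 of 23 genes were tested, 1 was called higher and 0 lower, with a median difference of -0.01. The 1 called was Srd5a2, a steroid 5-alpha-reductase that turns testosterone into dihydrotestosterone. It gave 0.58, 0.68 and 0.39 in aged kidneys and -0.94, -0.28 and -0.24 in young kidneys. The ages did not overlap, and the difference was 1.04 ± 0.20, 2.05-fold higher in aged kidneys (adjusted p = 0.0354 by limma). This call was lost when any 1 of the 6 arrays was left out, with an adjusted p of up to 0.177 over the settings run. Hsd17b1, which makes oestradiol, differed by -0.86 (adjusted p = 0.195 by limma), and Hsd3b3 by 0.28 (adjusted p = 0.270 by limma). Cyp21a1, the adrenal steroid hydroxylase that makes deoxycorticosterone, differed by -0.46 (adjusted p = 0.370 by limma). Hsd17b1 and Cyp21a1 were each above background on 2 aged and 3 young arrays, so both passed the filter through the young arrays alone. With normexp background correction their differences were -0.48 and -0.07. Another Cyp21a1 probe was above background on 0 aged and 0 young arrays.

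Inactivating and interconverting enzymes had 16 of 21 genes tested and a median difference of 0.07. Akr1c13 was the 1 called, and 0 were called lower. Hsd11b2, which protects the mineralocorticoid receptor from corticosterone in the distal nephron, gave -1.97, -1.95 and -1.61 in aged kidneys and -1.22, -1.30 and -1.57 in young kidneys. The ages did not overlap, and the difference of -0.48 ± 0.15 did not pass (adjusted p = 0.148 by limma). Of the 7 oxysterol and bile acid hydroxylases, relatives of Cyp7b1 in function, 4 were tested and 0 were called by limma. Beside 17.1% of all genes, 1 of these 4 genes had an unadjusted p under 0.05. That gene was Ch25h, which makes 25-hydroxycholesterol, with a difference of 0.53 ± 0.14 (adjusted p = 0.100 by limma). Cyp27a1 differed by 0.17, Hsd3b7 by 0.20 and Cyp39a1 by -0.06.

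Of 15 receptors and their partners, 14 were tested, 0 were called higher and 1 lower, with a median difference of 0.08. Gper1, a membrane receptor reported to bind oestrogen, gave -3.16, -3.36 and -3.27 in aged kidneys and -2.56, -2.76 and -2.51 in young kidneys. The ages did not overlap, and the difference was -0.65 ± 0.12 (adjusted p = 0.0279 by limma). With normexp background correction the difference was -0.35 and the adjusted p 0.445, and the call was also lost when any array other than aged replicate 1 was left out. Pgrmc2, a membrane protein related to the progesterone-binding Pgrmc1, differed by 0.18, Esrra by -0.18 and Esrrg by 0.23, and none of these passed.

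Androgen-responsive genes of mouse kidney had 12 of 13 genes tested, 2 called higher and 1 lower, with a median difference of -0.10. Slc7a12, an amino acid transporter that is higher in female than in male mouse kidney, gave 1.20, 0.99 and 1.21 in aged kidneys and -0.36, -1.36 and -0.92 in young kidneys. It was 4.03-fold higher in aged kidneys, by 2.01 ± 0.23 on the log2 scale (adjusted p = 0.00656 by limma). Cyp4a12a, a fatty acid hydroxylase that is higher in male mouse kidney, gave 4.18, 3.95 and 4.22 in aged kidneys and 2.89, 3.23 and 3.23 in young kidneys. Its difference was 1.00 ± 0.14 (adjusted p = 0.0123 by limma).

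Cyp4a14, a fatty acid hydroxylase that is higher in female mouse kidney, gave 0.57, 1.02 and 0.71 in aged kidneys and 1.88, 1.99 and 2.00 in young kidneys. It was lower in aged kidneys, with a difference of -1.19 ± 0.14 (adjusted p = 0.00656 by limma). The 3 called genes therefore did not share 1 direction by sex bias. Kap, an androgen-induced protein of the proximal tubule, gave 3.37, 1.93 and 2.52 in aged kidneys and 3.21, 3.66 and 3.15 in young kidneys, which overlapped, and its difference of -0.73 ± 0.33 did not pass (adjusted p = 0.319 by limma). Slc22a29, an organic anion transporter, differed by -0.35 (adjusted p = 0.289 by limma).

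All 10 glucocorticoid-responsive genes were tested and 0 were called by limma, with 3 at an unadjusted p under 0.05, beside 17.1% of all genes, and a median difference of 0.14. The one with the smallest p was Cdkn1a, a cell cycle inhibitor, at 0.48 ± 0.11 (adjusted p = 0.0640 by limma), and another probe of it differed by -0.08. The metallothionein Mt2 differed by 0.35, the phosphatase Dusp1 by -0.33 and the clock gene Per1 by 0.53, and none passed.

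**Figure D4:**
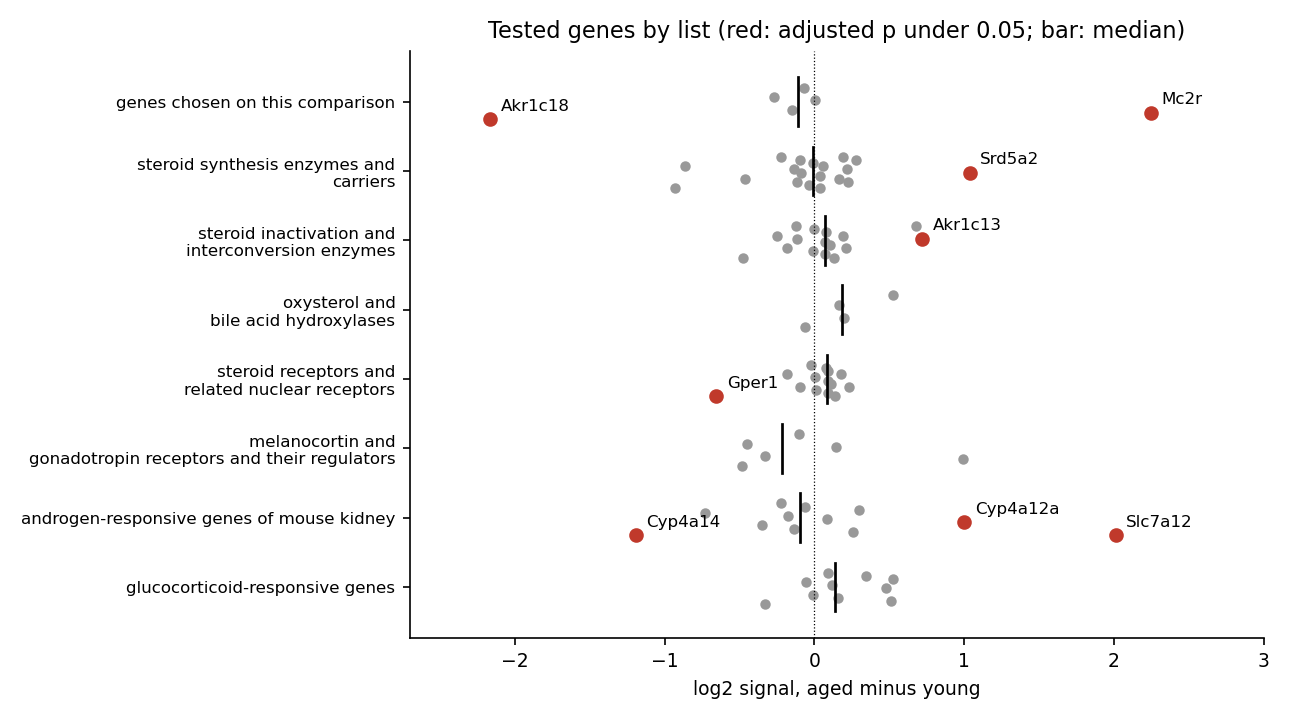
Difference in normalised log2 signal, aged minus young, of each tested gene in the 7 pathway lists and of the 6 genes measured among the 9 (top row), 1 point per gene, with called genes in red and a bar at each list's median. The genes of the top row were chosen on this comparison, so red there is a description. Most points lie within 1 log2 unit of 0, and the 6 called genes of the lists are Srd5a2, Akr1c13, Slc7a12 and Cyp4a12a above 0 and Gper1 and Cyp4a14 below it.

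Likeness to each of the 6 measured genes was read as Pearson's r of normalised log2 signal over the 6 arrays, among 12675 other genes. These are the highest of many values over few arrays that share 2 ages, and they are a description. Akr1c18 was most like Plod2 (r = 0.999) and Mki67 (r = 0.998), both lower in aged kidneys, with differences of -0.91 and -0.90. Mc2r was most like Bex2 (r = 0.996), higher by 1.12, and Vcam1 (r = 0.994), with a difference of 0.49 that was not called. Cyp7b1 was nearest to Fth1 (r = 0.995) and Ralgps2 (r = 0.994), and Esr1 to Ezhip (r = 0.997) and Ebpl (r = 0.994). Akr1c21 was nearest to Ptpa (r = 0.994) and Cars (r = 0.992), and Akr1c14 to Adipor1 (r = 0.995) and Klhl20 (r = 0.983).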

How the data were processed

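Kidney RNA of 3 aged and 3 young samples was measured on single-colour arrays. Per the labels, Trizol was used for extraction and Cy3 label was added by Klenow extension of random nonamers, which can label both strands. Per the file headers, spots were quantified with Agilent Feature Extraction 11.5.1.1, giving a background-subtracted processed signal intensity that is linear and not scaled between arrays. The authors' deposited value table is on the log2 scale and equals the log2 processed signal minus a constant for each array for probes with 1 spot. The grid was annotated on mm9. Gene symbols and promoter windows came from RefSeq on GRCm38.p6, so no gene coordinates of the array are given. Of 9 genes, 6 had a promoter window.

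Control spots and outlier-flagged spots were left out, each array's 75th percentile was subtracted from the log2 intensity, and spots of a probe were averaged. For a gene with several probes, the one of highest mean over the 6 arrays was used, and 26762 of 55681 probes carried a single symbol, 28919 none and 0 several. Probes that exceeded background clearly on each array of 1 age or both were tested with limma 3.58.1 in R 4.3.3 (lmFit and eBayes, 2-sided, age as the only term), with Benjamini-Hochberg adjustment over 14549 genes and a threshold of 0.05. The procedure was tested on simulated data.

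The 9 genes and the gene lists were chosen with earlier results of these data known. The text names the 9 genes, each list's called genes and up to 4 of its genes with the smallest p, marker genes called or not above background, and the 2 genes most like each measured gene. Kap, Akr1c6, the fat cell markers other than Plin4 and Lep, and Hsd3b2, Hsd3b4, Hsd3b5 and Hsd3b6 were named after their values were seen. A kidney marker is not reported here and was left out of the summed level. The alternatives comprised normexp (offset 50), median centring, quantile normalisation, the authors' values, other probe filters and probe rules, trend and robust variance, a replicate block and leaving out each array. Normexp had been planned on the mean spot signal, which was not available here, and was run on the median spot signal. No slide block was fitted, because all arrays lay on 1 slide.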

Additional observations from a re-analysis of the deposited data

How the results depend on the processing

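The number of genes called was 491 as reported, and it was 800 (433 higher, 367 lower) with median centring, 303 (213 higher, 90 lower) with normexp, 16 (15 higher, 1 lower) with no filter on dim probes and 266 (164 higher, 102 lower) with the replicate number as a block. Leaving out 1 array at a time gave 141 to 922 genes: 922 (344 higher, 578 lower) without aged replicate 1, 141 without aged replicate 2, 245 without aged replicate 3, 161 without young replicate 1, 242 without young replicate 2 and 238 without young replicate 3. Of the other steroid genes 6 were called as reported, and 0 of 98 by limma with no filter. In that setting 11 had an unadjusted p under 0.05, beside 11.2% of all genes. With the replicate block 3 were called (2 higher, 1 lower), and 3 to 7 with 1 array left out. The count was 8 with median centring and with signal required on all 6 arrays, 7 with quantile normalisation and 5 with normexp. With the replicate block the adjusted p was 0.0629 for Srd5a2, 0.0596 for Akr1c13 and 0.0559 for Gper1. Deviations of same-numbered arrays from their age means correlated at 0.06, -0.09 and 0.10, and those of differently numbered arrays at -0.12 to 0.07. With 3 arrays per age, this cannot decide whether the numbers pair the samples. The share of probes well above background fell from replicate 1 to replicate 3 at both ages. It was 62.9%, 55.7% and 46.3% in aged kidneys and 72.9%, 69.0% and 55.3% in young kidneys. Gper1 also missed the threshold with median centring (0.0841) and with trend and robust variance (0.0673). With no filter the adjusted p was 0.0811 for Cyp4a14, 0.0969 for Slc7a12 and 0.109 for Cyp4a12a, the only setting run in which these calls were lost. Calls were gained for Akr1c12 in the settings given above, for Mrap and Hsd17b1 (0.0280) with median centring, and for Cdkn1a with quantile normalisation (0.0426) and with signal required on all 6 arrays (0.0443). Cyp39a1, never called, changed sign without aged replicate 3 (0.043) and without young replicate 2 (0.01), its range with 1 array left out being -0.17 to 0.043. Akr1c18 and Mc2r were chosen on this comparison, so their values here are a description and no test. For Akr1c18 the difference ran from -2.57 to -1.92 and for Mc2r from 1.95 to 2.59 with 1 array left out. Both missed the threshold with no filter and without aged replicate 2. The cause of these changes was not tested. The number of arrays limits the precision.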
